A study of Homo sapiens with 2 samples.

Results

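The 10 aldehyde dehydrogenase genes ALDH1A1, ALDH1A2, ALDH1A3, ALDH2, ALDH3A1, ALDH3A2, ALDH3B1, ALDH7A1, ALDH9A1 and ALDH18A1 were followed in A427, an established line from a human non-small cell lung carcinoma whose cells grow attached or as spheres in suspension. They were taken by gene symbol from 23686 symbols, and all 10 were present. The rule itself uses no measured value, but the members were chosen with earlier results of these data known. The tables hold 9 further ALDH enzyme genes, which serve below as the comparison within the family. A427 cells in RPMI 1640 medium with 5% serum gave 1 library of attached cells (labelled Adherent cells) and 1 of sphere-forming cells (labelled Floating cells), with no other treatment named. The genotype label of both is WT, whereas the title of the study calls the line CTNNB1-mutated. Each growth form is therefore represented by a single RNA sample of a single cell line. A difference between the growth forms could not be tested against the spread between cultures, and no p-value is given. Each difference below compares these 2 libraries, and the 95% interval of a ratio, an exact binomial one, covers counting error only and not the spread between cultures.

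Aldehyde dehydrogenases oxidise aldehydes to carboxylic acids with NAD or NADP as the electron acceptor. Members of the ALDH1A subfamily turn retinaldehyde into retinoic acid, the ligand of the RAR nuclear receptors, while other members clear acetaldehyde, fatty aldehydes and aldehydes from lipid peroxidation or serve a step of amino acid metabolism. High activity of these enzymes, measured with a fluorescent aldehyde substrate, is widely used to sort stem-like cells from tumours, and ALDH1A1 is the isoform most often named in that use in lung cancer.

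Reads assigned to genes numbered 26384670 in the adherent and 27148842 in the floating library. Counts are estimates of reads per gene, RSEM being among the tools named in the submitters' processing notes. The estimates of all 10 members were whole numbers in both libraries. A gene was compared if it reached 1 CPM (count per 1000000 after TMM scaling, about 26 and 27 reads) in at least one library, which 13131 genes did. Of the epithelial markers KRT8, KRT18 and EPCAM were abundant, KRT8 at 326.59 TPM (transcripts per 1000000, a level corrected for gene length) in adherent and 581.13 TPM in floating cells, KRT18 at 342.47 and 612.52 TPM, and EPCAM at 615.34 and 581.81 TPM. CDH1, the E-cadherin gene, went the other way from the keratins, at 18.85 and 13.94 TPM (log2 ratio -0.39, interval -0.52 to -0.26), and KRT19 had 8 and 22 reads. Of 7 markers of differentiated lung, SFTPC, SFTPA1 and SCGB1A1 had 0 reads in both libraries and the summed level of all 7 was 5.96 TPM in attached and 5.58 TPM in floating cells. FOXJ1 held 3.89 and 3.77 TPM of that sum. Summed levels of 5 immune markers were 19.8 and 33.5 TPM, of which CD68 held 16.88 and 31.46 TPM, with CD3E and LYZ at 0 reads. PTPRC, a pan-leukocyte marker, was lower in floating cells, with 159 and 121 reads (log2 ratio -0.44, interval -0.80 to -0.09). The 3 endothelial markers summed to 0.13 and 0.42 TPM. Among them VWF had 14 and 44 reads (log2 ratio 1.57, interval 0.71 to 2.59). It reached 1 CPM through the floating library alone, at 0.532 and 1.62 CPM. KRT8, KRT18 and CD68 were also higher in floating cells. Their log2 ratios were 0.87 (0.83 to 0.92), 0.88 (0.83 to 0.93) and 0.94 (0.75 to 1.13). The 5 mesenchymal markers summed to 5278 and 4858 TPM, nearly all of it VIM, with PDGFRA at 5 and 4 reads. COL1A1 was lower in floating cells, with 999 and 613 reads (log2 ratio -0.75, interval -0.90 to -0.61). The part of differences in cell makeup in the values below was not tested. In a bulk sample, fewer cells that express a gene and less RNA of it per cell cannot be told apart.

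ALDH1A1 carried nearly all of the family's RNA in both growth forms, and its scaled count was 1.20-fold lower in the floating library (interval 1.19 to 1.21). The other members stood at 76.35 TPM or less. Of the 10 members 7 reached 1 CPM and were compared: 1 was at least 2-fold higher in floating cells, none was at least 2-fold lower, and 6 lay within 1.5-fold. Of all genes compared, 1.28% were past the same rule higher and 0.754% lower. The 3 not compared were ALDH1A2, ALDH2 and ALDH3A1.

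The 3 genes of the ALDH1A subfamily catalyse the same reaction and include the highest and the lowest adherent TPM of the 10. The lowest, ALDH1A2, had 1 adherent read, as did ALDH3A1, so the order of these 2 genes is not resolved. The 250 bases upstream of the annotated starts of the 3 ALDH1A genes are shown. They are given as in RefSeq on GRCh38.p14, each 5' to 3' on the gene's own strand. ALDH1A1 lies at chr9:72953054-72953303 on the minus strand, ALDH1A2 at chr15:58065712-58065961 on the minus strand (the first of 2 annotated starts) and ALDH1A3 at chr15:100879581-100879830 on the plus strand. Capitals mark the CCAAT box (CCAAT) and the GC box (GGGCGG), searched on both strands with overlapping matches counted.
ALDH1A1: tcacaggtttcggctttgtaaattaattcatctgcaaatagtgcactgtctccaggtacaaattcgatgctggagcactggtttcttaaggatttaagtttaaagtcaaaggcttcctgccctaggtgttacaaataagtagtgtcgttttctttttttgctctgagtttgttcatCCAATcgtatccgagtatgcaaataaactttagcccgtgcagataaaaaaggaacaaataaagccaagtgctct
ALDH1A2: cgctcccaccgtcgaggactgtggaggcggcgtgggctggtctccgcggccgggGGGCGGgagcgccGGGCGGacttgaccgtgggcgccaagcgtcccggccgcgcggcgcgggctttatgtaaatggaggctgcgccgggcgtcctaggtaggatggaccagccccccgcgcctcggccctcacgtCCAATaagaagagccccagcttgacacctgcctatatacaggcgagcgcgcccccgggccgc
ALDH1A3: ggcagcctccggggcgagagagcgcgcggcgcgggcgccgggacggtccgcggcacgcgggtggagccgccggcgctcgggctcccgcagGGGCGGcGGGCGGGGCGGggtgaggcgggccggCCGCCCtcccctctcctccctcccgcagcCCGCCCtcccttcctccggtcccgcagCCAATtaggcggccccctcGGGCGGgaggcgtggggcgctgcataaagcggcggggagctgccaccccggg

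The upstream window of ALDH1A1 has 6 CpG dinucleotides and 38.4% G or C, against 33 and 72.8% for the ALDH1A2 window shown and 38 and 82.4% for ALDH1A3. The window of the second ALDH1A2 start, not shown, has 1 CpG, 41.6% G or C and neither a CCAAT box nor a GC box, so it is closer to that of ALDH1A1 in composition. Over all 35116 windows of this length in the table the medians were 11 CpG and 58% G or C. Of these windows 41.1% had as few CpG as that of ALDH1A1. A CCAAT box begins 74 bases before the start of ALDH1A1, 62 before the first start of ALDH1A2 and 71 before that of ALDH1A3, in the same orientation in these 3 windows. The motif occurs in 32.0% of all windows. GC boxes numbered 0, 2 and 6 in the same order, 2 of the 6 overlapping, and 42.6% of all windows hold at least 1. The TATA box (TATAAA) was in none of the 3 windows and in 10.7% of all. Windows were found for 8 of the 10 members, all but ALDH2 and ALDH3A1, and over the 11 windows of these 8 genes the TATA box had no match. These matches describe the letters of the reference and not binding.

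ALDH1A1, the cytosolic retinaldehyde dehydrogenase, had 136361 reads in the adherent and 117876 in the floating library. Its level was 5014.66 TPM in adherent cells (counting interval 4988 to 5041) and 4063.95 TPM in floating cells (4041 to 4087). It was the gene of rank 10 by TPM in the adherent and of rank 14 in the floating library, and held 0.501% and 0.406% of all TPM. On scaled counts the log2 ratio was -0.26 (-0.27 to -0.25), lower in floating cells. On the deposited TPM the log2 ratio was -0.30.

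The difference in ALDH1A1 was small as a fold and toward the low end among abundant genes. Of 2412 genes with a mean of at least 100 CPM, 221 (9.16%) had a log2 ratio at or below that of ALDH1A1. This share leaves out genes as far above 0. The median over these genes was -0.01, with quartiles of -0.13 and 0.12. Among the 20 genes of highest mean TPM, 8 had log2 ratios below 0, and none was lower than that of ALDH1A1. On the other side of 0, TMSB10 and FTL were about as far from it, at 0.26 and 0.24. The 3 genes nearest to it in log2 TPM over the 2 libraries were RPL19, TPT1 and VIM, at distances of 0.25, 0.25 and 0.26. VIM, the intermediate filament vimentin, was at 5264.01 and 4850.24 TPM with a log2 ratio of -0.07, TPT1 had a ratio of -0.11 and the ribosomal protein gene RPL19 one of 0.07. Likeness over 2 values says only that these genes were about as abundant.

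ALDH1A3, the retinaldehyde dehydrogenase most often named beside ALDH1A1 in carcinoma cells, had 659 reads in adherent and 693 in floating cells. Its level was 15.93 TPM (14.7 to 17.2) and 15.7 TPM (14.6 to 16.9), so that the counting intervals overlapped almost entirely. The log2 ratio on scaled counts was 0.02 (-0.13 to 0.18), and on TPM it was -0.02. ALDH1A1 stood 315-fold above ALDH1A3 in TPM in adherent cells and 259-fold in floating cells.

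ALDH1A2, the retinaldehyde dehydrogenase of the early embryo, had 1 read in the adherent and 0 reads in the floating library. A count of 0 allows up to 3 reads, or 0.1102 CPM in the floating library. No ratio is given for this gene, which was at the limit of detection in both growth forms.

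**Figure D1:**
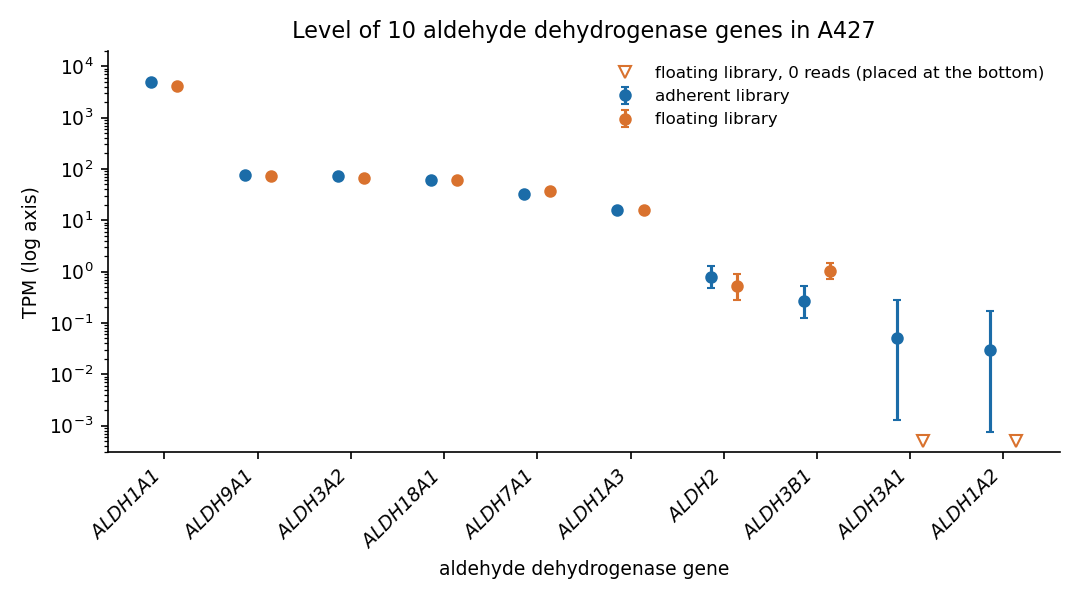
Level of the 10 members in TPM on a log axis, 1 point for each library, with 95% Poisson counting intervals. Genes are ordered by their adherent level. ALDH1A1 stands at 5014.66 and 4063.95 TPM, 5 members lie between 15.7 and 76.35 TPM, and ALDH1A2 and ALDH3A1 have 0 reads in the floating library and are drawn as open triangles at the bottom.

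Summed over the 10 members the level was 5277 TPM in attached and 4319 TPM in floating cells, or 0.528% and 0.432% of all TPM. ALDH1A1 made up 95.03% of the sum in adherent and 94.1% in floating cells. Counted in reads, which need no scaling between libraries, its share of the members' total was 92.7% (exact Clopper-Pearson interval 92.6 to 92.9) and 91.4% (91.2 to 91.5). The intervals of the 2 libraries did not overlap, so ALDH1A1 was lower in floating cells relative to its own family too. Of the difference in summed TPM between the growth forms, 99.2% was that of ALDH1A1. An equal fold change in all members would already give 95.03%, its share of the adherent sum.

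Without ALDH1A1 the remaining 9 members together held 262.45 TPM in the adherent and 254.82 TPM in the floating library. ALDH1A1 exceeded their sum 19.1-fold and 15.9-fold. Their summed log2 ratio was -0.043 on TPM and 0.02 on scaled counts (interval -0.02 to 0.05), near 0 by both measures and of opposite sign. Within this remainder ALDH9A1 held 29.1% and 28.7%, ALDH3A2 28.1% and 26.1%, ALDH18A1 23.7% and 23.6%, ALDH7A1 12.6% and 14.8%, and ALDH1A3 6.07% and 6.16% in adherent and floating cells. The last 4 genes together stayed under 1%.

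ALDH9A1, which oxidises trimethylaminobutyraldehyde on the way to carnitine, had 2202 and 2253 reads and stood at 76.35 TPM (73.2 to 79.6) and 73.23 TPM (70.2 to 76.3). The log2 ratio was -0.02 (-0.10 to 0.07), an interval that included no difference. ALDH3A2, the fatty aldehyde dehydrogenase of the endoplasmic reticulum that is deficient in Sjögren-Larsson syndrome, had 3260 and 3140 reads. Its level was 73.76 TPM (71.2 to 76.3) in adherent and 66.51 TPM (64.2 to 68.9) in floating cells, 1.07-fold lower (1.02 to 1.13) on scaled counts, with a counting interval close to no difference. In adherent cells the TPM intervals of ALDH9A1 and ALDH3A2 overlapped, whereas in floating cells that of ALDH9A1 lay above that of ALDH3A2. These intervals leave out error in the length correction. In reads, ALDH3A2 was above ALDH9A1 in both libraries.

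ALDH18A1, the pyrroline-5-carboxylate synthase that starts proline synthesis from glutamate, had 2543 and 2629 reads. It stood at 62.08 TPM (59.7 to 64.5) in adherent and 60.15 TPM (57.9 to 62.5) in floating cells, below ALDH3A2 in both libraries. The log2 ratio was -0.001 (-0.08 to 0.08), so that a difference beyond that interval was not detected at this depth. ALDH7A1, the aminoadipic semialdehyde dehydrogenase of lysine breakdown, went the other way from ALDH1A1 and ALDH3A2. It had 1974 reads in adherent and 2392 in floating cells, at 33.18 TPM (31.7 to 34.7) and 37.66 TPM (36.2 to 39.2), and was 1.17-fold higher in floating cells (1.10 to 1.24). On TPM the log2 ratio of ALDH7A1 was 0.18 against 0.23 on scaled counts.

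ALDH3B1, which acts on lipid-derived aldehydes at membranes, was the member past the 2-fold rule. It had 9 reads in the adherent and 35 in the floating library, at 0.27 TPM (0.123 to 0.513) and 1.04 TPM (0.724 to 1.45). It was 3.61-fold higher in floating cells, with an interval of 1.77 to 8.89. ALDH3B1 reached the 1 CPM minimum through the floating library alone, where it had 1.29 CPM against 0.342 CPM in adherent cells. With a minimum of 5 CPM it was not compared, and on log2(TPM + 1) its ratio was 0.68, short of 2-fold.

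The share of genes past 2-fold depends on how many reads they have. Among the 630 genes whose higher library had 1 to 2 CPM, as for ALDH3B1, 9.37% were past 2-fold higher and 5.71% past it lower, against 1.28% and 0.754% of all 13131 genes. In all 41 genes had a log2 ratio at or above that of ALDH3B1, itself included.

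ALDH2, the mitochondrial enzyme that clears acetaldehyde, was nearly absent, with 18 reads in adherent and 13 in floating cells. Its level was 0.8 TPM (0.474 to 1.26) and 0.53 TPM (0.282 to 0.906), overlapping that of ALDH3B1 in both libraries. ALDH3A1, an enzyme of cornea and stomach that is inducible by aromatic hydrocarbons, had 1 read in adherent and 0 reads in floating cells. Neither gene reached 1 CPM, and their ratios are not given. ALDH3A1 and ALDH3A2 are separated by 1 protein-coding gene in the RefSeq order, SLC47A2, which had 0 reads in both libraries.

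Counting intervals were narrow for abundant genes. Of the 7 members compared, 2 had intervals above no difference (ALDH3B1 and ALDH7A1), 2 below (ALDH1A1 and ALDH3A2) and 3 included it. Over all genes tested, 25.5% of intervals lay above and 25.6% below no difference. Among genes of at least 100 CPM the shares were 36.1% and 39%. An interval apart from 0 was thus common in these libraries, and 4 of 7 members is near that background. The median log2 ratio was -0.001 over the 7 members and -0.005 over all genes tested.

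**Figure D2:**
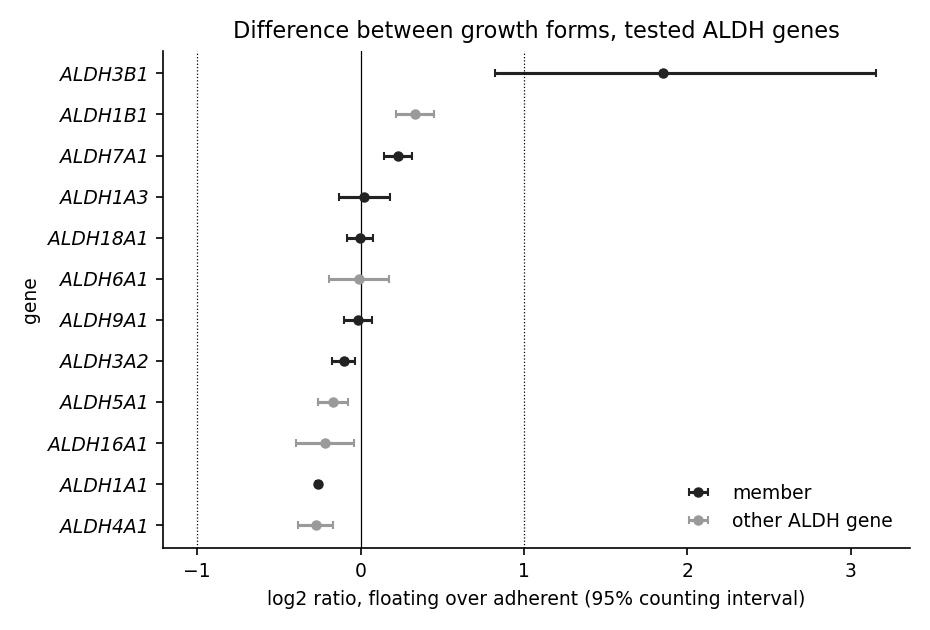
Log2 ratio of floating over adherent for the 7 members compared (black) and 5 other ALDH genes (grey), with exact 95% counting intervals. Dotted lines mark 2-fold. ALDH3B1, at 1.85, is the one gene past 2-fold, and the others lie between -0.28 and 0.33.

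**Figure D3:**
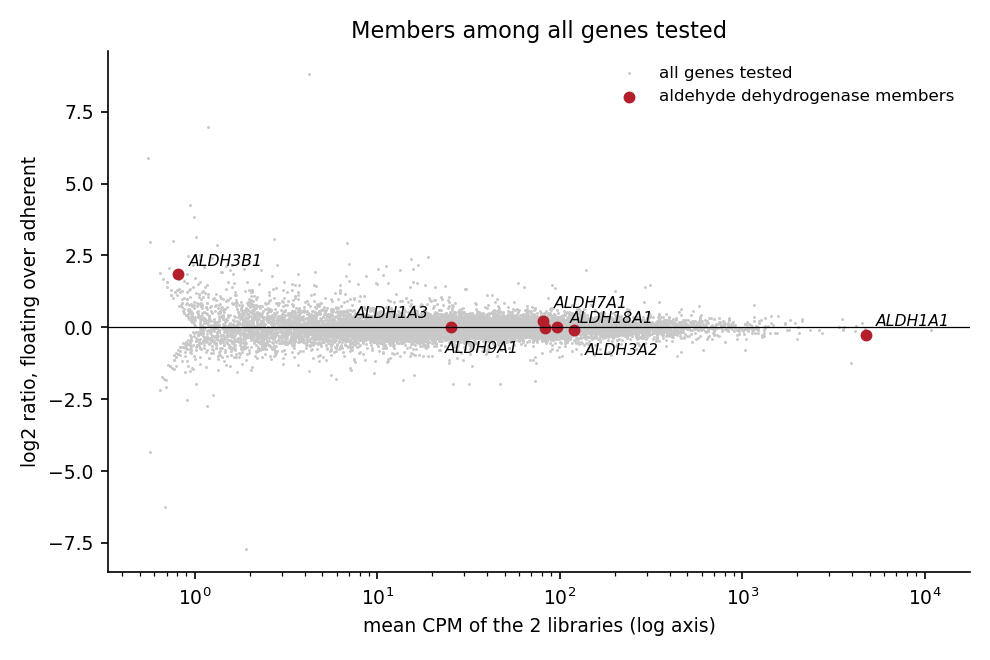
Log2 ratio of floating over adherent against mean CPM (log axis) for all 13131 genes compared (grey), with the 7 members in red. ALDH1A1 is at the abundant end, slightly below 0, ALDH3B1 is among the thinly counted genes at the left where ratios spread widely, and the other 5 lie in the dense middle.

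The 9 ALDH genes outside the rule added little to the family's total, 137.08 TPM in attached and 128.23 TPM in floating cells. Of these, 5 were compared, with a median log2 ratio of -0.17, 1 interval above and 3 below no difference, and none past 2-fold. Over all genes tested the shares of intervals were 25.5% above and 25.6% below. ALDH1B1, a mitochondrial relative of ALDH2, was 1.26-fold higher in floating cells (1.16 to 1.37), at 29.38 and 35.86 TPM. ALDH4A1, which completes proline breakdown in mitochondria, was 1.21-fold lower (1.125 to 1.303), at 40.46 and 32.49 TPM. ALDH5A1, the succinic semialdehyde dehydrogenase, was 1.12-fold lower (1.05 to 1.20) and ALDH16A1 1.16-fold lower (1.03 to 1.31). ALDH6A1, which serves valine breakdown, had 492 and 506 reads, with a log2 ratio of -0.01 (-0.19 to 0.17). Over all 19 ALDH genes ALDH1A1 held 92.6% of the TPM in adherent and 91.4% in floating cells.

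Genes that feed and read the ALDH1A reaction were described next, from a list of retinol supply and storage and a list of retinoic acid binding, receptors and breakdown. Of 17 supply genes 8 were compared, 2 were past 2-fold higher, 6 had intervals that included no difference, and the median log2 ratio was 0.10. Both genes past 2-fold were thinly counted, DHRS9, a retinol dehydrogenase, with 13 and 30 reads (2.18-fold, 1.13 to 4.66) and BCO2, a carotenoid oxygenase, with 15 and 32 reads (2.03-fold, 1.08 to 4.10). Like ALDH3B1, both reached 1 CPM through the floating library alone, DHRS9 at 0.494 and 1.10 CPM and BCO2 at 0.570 and 1.18 CPM. They belong to the genes of 1 to 2 CPM of which 9.37% were past 2-fold higher. DHRS3, which reduces retinaldehyde back to retinol, had 54 and 79 reads and a log2 ratio of 0.50 (-0.02 to 1.03). RDH14 was the most abundant at 44.88 and 44.14 TPM, and RDH10, the main retinol dehydrogenase of the embryo, was at 6.81 and 7.02 TPM. The retinol carrier RBP4 had 0 reads in both libraries, and the retinol transporter STRA6 had 4 and 5.

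Among receptors and breakdown enzymes, 11 of 16 genes were compared, 3 with intervals above and 6 below no difference and none past 2-fold. Over all genes tested 25.5% of intervals lay above and 25.6% below, and among genes of at least 100 CPM 36.1% and 39%. The median log2 ratio of the list was -0.16, and the list was not tested as a set. RARB, a retinoic acid receptor gene, had 348 reads in adherent and 237 in floating cells, at 9.92 and 6.41 TPM. Its count was 1.52-fold lower in floating cells (1.28 to 1.80). RARG, the most abundant receptor of the list, was at 86.57 and 64.81 TPM, with a log2 ratio of -0.38 (-0.46 to -0.30), and the coactivator NCOA3 was 1.31-fold lower (1.24 to 1.38). CYP26B1, a hydroxylase that degrades retinoic acid, had 376 and 319 reads (1.22-fold lower, 1.05 to 1.42). CYP26A1, a related hydroxylase, had 18 and 10 reads and was not compared. FABP5, a fatty acid binding protein that also carries retinoic acid, was 1.40-fold higher (1.27 to 1.54), at 107.86 and 146.95 TPM, and its estimate had decimals. The co-repressor NCOR1 was 1.13-fold higher (1.09 to 1.16). RARA had a log2 ratio of -0.09 (-0.29 to 0.10).

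Lists around the other members held no gene past 2-fold. Their interval counts, here and in the paragraphs that follow, stand beside shares of 25.5% above and 25.6% below over all genes tested. No list was tested as a set. In proline and ornithine metabolism, the setting of ALDH18A1, 10 of 11 genes were compared, 4 with intervals above and 2 below no difference, and the median was 0.14. ASNS was the most abundant of the list, at 207.16 and 268.24 TPM (1.32-fold higher, 1.27 to 1.37). It is the asparagine synthetase and not an enzyme of proline or ornithine metabolism, and the counts and median above include it. OAT, the list gene next to it in adherent TPM, stood at 162.84 and 144.34 TPM, with a log2 ratio of -0.13 (-0.20 to -0.07). The mitochondrial arginase ARG2 was 1.46-fold higher (1.26 to 1.71). PYCR1, which completes proline synthesis downstream of ALDH18A1, was 1.16-fold higher (1.10 to 1.22), whereas its relative PYCRL had a log2 ratio of -0.38 (-0.64 to -0.13). PRODH, which opens proline breakdown, had 40 and 55 reads, with a log2 ratio of 0.41 (-0.20 to 1.04).

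For fatty aldehydes and ether lipids, the setting of ALDH3A2, 7 of 11 genes were compared, 3 with intervals above and 3 below no difference, and the median was -0.04. CYP4F11, a fatty acid hydroxylase, was 1.54-fold higher (1.22 to 1.97) with 115 and 184 reads, and the peroxisomal import receptor PEX5 was 1.14-fold lower (1.08 to 1.21). AGPS, an enzyme of ether lipid synthesis, was 1.10-fold higher (1.04 to 1.16). SGPL1, the sphingosine phosphate lyase whose product ALDH3A2 oxidises, was the most abundant, at 78.74 and 73.29 TPM with a log2 ratio of -0.06 (-0.11 to -0.004).

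Of 16 genes of alcohol and aldehyde oxidation and reduction 8 were compared, 4 with intervals above and 1 below no difference, and the median was 0.10. The ethanol-oxidising ADH1A, ADH1B and ADH1C had 0 reads in both libraries. ESD, which acts in formaldehyde clearance, was 1.25-fold higher (1.16 to 1.35). The carbonyl reductase CBR1 was 1.13-fold higher (1.04 to 1.23), and catalase (CAT) was 1.09-fold higher (1.01 to 1.17). AKR1B1, the aldose reductase, was the most abundant in adherent cells, at 116.9 and 105.14 TPM (1.08-fold lower, 1.01 to 1.16).

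In the list of lysine, choline and carnitine metabolism, the setting of ALDH7A1 and ALDH9A1, 8 of 10 genes were compared, 2 with intervals above and 2 below no difference, and the median was -0.02. AASS, which begins lysine breakdown upstream of ALDH7A1, had 67 and 118 reads and was 1.70-fold higher (1.25 to 2.33). GCDH, further down the same route, was 1.28-fold higher (1.11 to 1.47), while DHTKD1, which acts between them, was 1.17-fold lower (1.07 to 1.28). The lysine route thus held values on both sides of 0. AASDHPPT was the most abundant of the list, at 39.36 and 38.38 TPM. BBOX1, the final enzyme of carnitine synthesis, had 0 reads in both libraries.

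**Figure D4:**
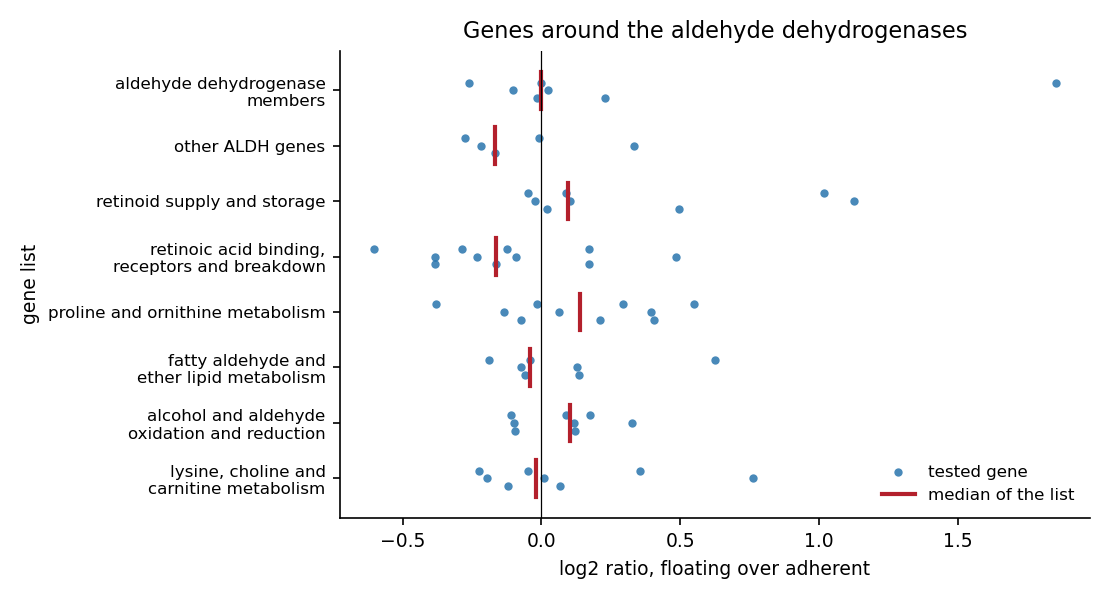
Log2 ratio of floating over adherent for each gene compared (points) in the members and 7 further lists, with the median of each list as a red bar. Medians lie between -0.17 (other ALDH genes) and 0.14 (proline and ornithine metabolism), and genes of every list fall on both sides of 0.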

How the data were processed

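RNA was extracted with DNase treatment and made into libraries with a KAPA mRNA kit, per the labels' protocols. The submitters' processing notes name FastQC 0.11.1, STAR 2.5.3a, RSEM 1.3.3 and the build hg19. Annotation, settings and strand use: not given in the sources used here. Estimated counts per gene symbol were deposited by the authors without normalization, and TPM were scaled by the authors, with column sums of 999999 and 1000000. Columns were assigned by sample title.

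Estimated counts were rounded and scaled by TMM in edgeR 4.0.16 (R 4.3.3). Log2 ratios, floating over adherent, used (count + 0.5) per effective library size. Their 95% intervals are Clopper-Pearson intervals given the reads of the gene in both libraries, and intervals of TPM are exact Poisson ones scaled from reads. Reads carry no molecular identifiers, so intervals and the limit of 3 reads for a count of 0 cover counting error only. A call needed 2-fold and an interval apart from no difference. With 1 library per group no edgeR or DESeq2 test was run. The calculation was tried on simulated counts with counting error only, the error that the intervals assume. That trial could not address the spread between cultures. Alternatives to TMM were library totals, the upper quartile and the size factors of DESeq2 1.42.0. TPM, a prior count of 5, other filters and 1.5-fold were also tried.

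The members, lists and rules were chosen with earlier results of these data known. Named were all ALDH genes, the 3 genes nearest to ALDH1A1 and, in each further list, the 3 genes farthest from 0 and the most abundant one. Other list genes named were chosen after their values were seen, and some list genes are not reported here. BCO1 and PYCR3 were matched by their RefSeq (GRCh38.p14) synonyms BCMO1 and PYCRL. Python 3.11.15, numpy 2.4.6, scipy 1.17.1 and pandas 2.3.3 were used.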

Additional observations from a re-analysis of the deposited data

How the results depend on the processing

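The log2 ratio of ALDH1A1 stayed below 0 under every scaling tried, at -0.27 with the upper quartile and -0.30 on TPM with a pseudocount of 0.1 or 1, each outside its narrow counting interval. With DESeq2 size factors and library totals it stayed inside. The count of members past 2-fold higher was 0 on log2(TPM + 1) and with a minimum of 5 CPM, because ALDH3B1 dropped out, and 1 under the other alternatives. None was past 2-fold lower under any. The summed level of the members had a log2 ratio of -0.24 on scaled counts and -0.29 on TPM, and of -0.043 on TPM without ALDH1A1, an alternative chosen after seeing the data. The share of ALDH1A1 in the sum was 92.7% in adherent and 91.4% in floating cells in estimated counts, and 92.6% and 91.4% over all 19 ALDH genes. The median of the other ALDH genes was -0.17 with the filter and 0.33 with none, since genes of 1 to 9 reads then entered. That of fatty aldehyde genes was 0.13 with no filter, and that of proline genes 0.02 with a minimum of 5 CPM. No paired analysis was possible because each growth form has 1 library. Leaving out a replicate was likewise not possible. Depth limits ALDH1A2, ALDH3A1, ALDH2 and ALDH3B1, each with at most 35 reads in a library.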

Other observations

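The next protein-coding gene beside ALDH1A1 in the RefSeq order of chromosome 9 is ANXA1, which encodes annexin A1. It was among the most abundant genes of both libraries, at 7567.25 TPM (rank 4) in adherent and 6793.74 TPM (rank 5) in floating cells, with a log2 ratio of -0.11 (interval -0.13 to -0.10). The next gene on the other side, TMC1, stood at 0 and 0.02 TPM, and RORB, beyond ANXA1, had 0 reads in both libraries. ZFAND5, beyond TMC1, was at 36.59 and 46.54 TPM and higher in floating cells (log2 ratio 0.39, interval 0.32 to 0.47). ALDH1A1 and ANXA1 thus stood high between direct neighbours near 0. Both were lower in floating cells, where 39% of genes of at least 100 CPM had intervals below no difference. This pair was noticed after its values were seen.

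The thinly counted ALDH genes outside the rule all had more reads in the floating library. ALDH8A1 had 1 read in adherent and 9 in floating cells, ALDH3B2, the close relative of ALDH3B1, had 0 and 3, ALDH1L2 0 and 2, and ALDH1L1 0 and 1. These genes are at or near the limit of detection, and no ratio is given. Of the thinly counted members, ALDH2 (18 and 13 reads), ALDH1A2 (1 and 0) and ALDH3A1 (1 and 0) had more reads in the adherent library.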
